A study of Mus musculus with 24 samples.

Results

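Endothelial and blood-brain barrier genes were compared between medulloblastomas that began in neural stem cells and medulloblastomas that began in committed progenitors. The genes are 39 names known from vascular biology, and they were chosen with earlier results of these data known. Each was read from a probe set annotated to that gene alone, with the highest mean taken where a gene had several. Of the 39 genes, 37 had such a probe set, among 22180 genes that did and 41345 probe sets in all. The antisense transcripts *Lef1os1* and *Robo4os* had none under their own name and were not measured. The 37 genes fall into 16 pan-endothelial genes, which mark endothelium in most vessels, 9 barrier genes, which serve the junctions and carriers of brain endothelium, and 12 angiogenic genes, the ligands, receptors and markers of vessel growth.

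*G-Smo* tumors arose in *hGFAP-Cre/SmoM2* mice, in which Cre is driven by a human *GFAP* promoter from the stage of neural stem cells across much of the brain. *M-Smo* tumors arose in *Math1-Cre/SmoM2* mice, in which Cre is confined mostly to the *Atoh1* lineage of granule neuron progenitors. Both genotypes carry *SmoM2*, a constitutively active allele of the SHH receptor component *Smo*, on a C57BL/6 background, and tumors were harvested at P15 with no treatment. Cre is driven in neural cells in both models, and the vessels are host tissue. The comparison holds 6 *G-Smo* and 6 *M-Smo* tumors, each on 1 array, and 12 tumors harvested 2 h after 10 Gy of xRT were not used here. The labels do not say whether tumors came from separate litters or which sex each mouse was, so that p-values measure the spread between these tumors. *Xist* was high and the Y-linked genes low in 5 of 6 *G-Smo* tumors, all but replicate 6. The same held in 2 of 6 *M-Smo* tumors, replicates 1 and 6. The genotypes thus differed in their mix of sexes. Pairs of arrays correlated at 0.984 to 0.992 within genotypes and at 0.981 to 0.99 between them.

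Brain endothelial cells differ from those of other organs in that tight junctions seal the gaps between them and dedicated carriers bring in nutrients, lipids and hormones. Wnt signals from neural cells keep this barrier program on, and vessels that grow under VEGF signaling or that lose the program tend to gain *Plvap*, a protein of fenestrated endothelium. Apelin, the angiopoietins and VEGF act on receptors of the endothelial surface to steer sprouting and to keep vessels quiet.

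Promoter sequence was available from RefSeq on GRCm38.p6 for 22 of the 37 genes, in 30 windows of the 250 bases before a transcription start. They are given because members of one cell type share ETS factors such as ERG, whose core motif is GGAA. Of the 9 genes described below by their values per tumor, the 4 with a single window in the table are shown, 5′ to 3′ on the strand of the gene, with GGAA or its reverse complement TTCC in capitals. These 4 are on the minus strand: *Clec14a* at chr12:58269259-58269508, *Pltp* at chr2:164857709-164857958, *Slco1a4* at chr6:141856221-141856470 and *Apln* at chrX:48034854-48035103.
Clec14a: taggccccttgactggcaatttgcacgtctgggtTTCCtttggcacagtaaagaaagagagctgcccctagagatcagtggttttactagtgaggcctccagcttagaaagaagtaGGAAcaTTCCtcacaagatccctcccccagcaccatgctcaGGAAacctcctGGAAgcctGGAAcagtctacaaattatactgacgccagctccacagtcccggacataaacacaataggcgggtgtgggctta
Pltp: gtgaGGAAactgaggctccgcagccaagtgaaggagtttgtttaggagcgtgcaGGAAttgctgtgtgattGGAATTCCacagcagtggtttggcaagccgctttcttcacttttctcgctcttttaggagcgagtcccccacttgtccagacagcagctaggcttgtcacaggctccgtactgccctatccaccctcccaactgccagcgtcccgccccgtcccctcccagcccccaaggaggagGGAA
Slco1a4: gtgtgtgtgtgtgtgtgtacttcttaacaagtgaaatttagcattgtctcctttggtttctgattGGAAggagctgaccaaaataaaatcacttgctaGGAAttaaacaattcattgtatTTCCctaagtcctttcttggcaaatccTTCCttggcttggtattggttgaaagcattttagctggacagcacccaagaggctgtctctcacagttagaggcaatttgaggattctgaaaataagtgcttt
Apln: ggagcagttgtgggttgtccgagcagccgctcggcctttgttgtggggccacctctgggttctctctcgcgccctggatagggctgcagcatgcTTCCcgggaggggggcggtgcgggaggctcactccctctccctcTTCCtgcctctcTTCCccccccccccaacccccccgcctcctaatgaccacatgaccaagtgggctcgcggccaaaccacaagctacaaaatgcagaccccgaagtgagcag
The core was found in 27 of 30 windows (90%), against 93.4% of 32851 windows of all genes, and occurred 6 times in *Clec14a*, 5 times in *Pltp*, 4 times in *Slco1a4* and 3 times in *Apln*. Among the windows not shown it ranged from 0, as in *Cldn5*, to 8 in *Slco1c1*. The longer motif AGGAAG or CTTCCT, which contains the core, was found in 13 of 30 (43.3%) against 29.5%. The SOX core ACAAT or ATTGT was found in 16.7% against 27.7%, and the TCF/LEF motif CTTTGA or TCAAAG in 10% against 13.8%. A match describes the letters of these windows only.

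Transcripts of endothelial genes gave clear signals in both genotypes. The levels of 32 of the 37 genes ranked above the median probe set, and the arrays' medians were 6.39 to 6.42 in *G-Smo* and 6.38 to 6.41 in *M-Smo* tumors on the log2 intensity scale. *Icam2*, *Ly6c1*, *Esm1*, *Plvap* and *Clec14a* had means below the median probe set, where a weak signal limits what a difference can show.

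Of the 37 genes, 3 passed the genotype test and all 3 were lower in *G-Smo* tumors: *Cdh5*, the adhesion molecule of endothelial junctions, *Aplnr*, the apelin receptor, and *Pltp*, a phospholipid transfer protein. The test was limma's moderated comparison of *G-Smo* minus *M-Smo*, with p adjusted by Benjamini-Hochberg across the 41345 probe sets and a threshold of 0.05, and it called 2.56% of all probe sets in either direction, 1.29% of them lower in *G-Smo* (1.8% of probe sets with 1 gene symbol). In *Cdh5* and *Aplnr* every *G-Smo* tumor lay below every *M-Smo* tumor, as in 1.57% of all probe sets and 2.31% of those with 1 gene symbol. The log2 difference was below 0 in 28 of the 37 genes, against 49% of all probe sets and 53.4% of probe sets with 1 gene symbol. The median log2 difference was -0.09 over the 37 genes, 0.0035 over all probe sets and -0.012 over probe sets with 1 gene symbol. At an unadjusted p under 0.05, 11 genes were lower in *G-Smo*, where the share over all probe sets was 8.65%, and 2 were higher, where it was 10.2%. Of the 23521 probe sets with 1 gene symbol, 2648 were lower and 2140 higher at that p. The 37 genes were chosen with earlier results of these data known, so these counts carry no test. In whole tumors, fewer endothelial cells, less RNA per endothelial cell and changes in other cells expressing some of these genes cannot be told apart.

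**Figure D1:**
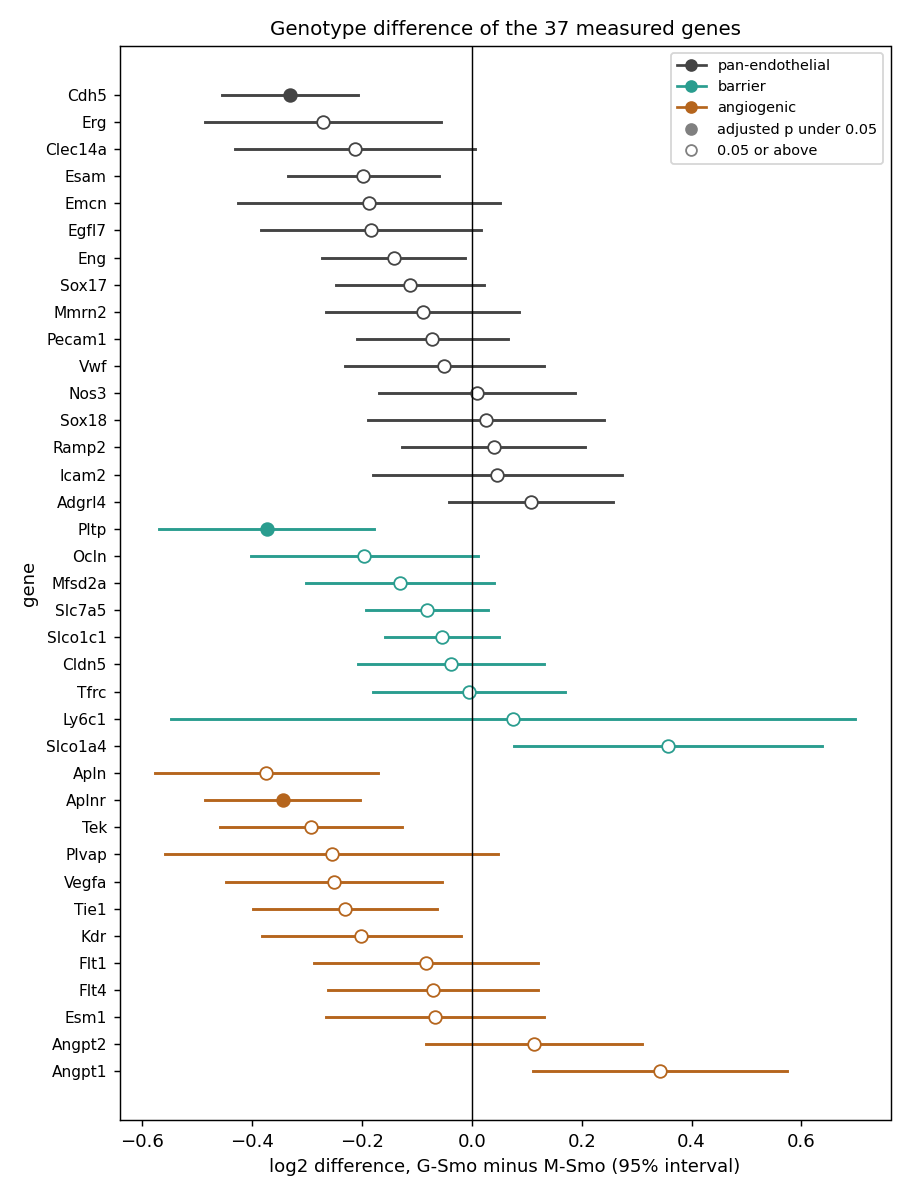
Log2 difference, *G-Smo* minus *M-Smo*, of the 37 measured genes with its 95% interval from limma (x axis), with genes grouped by role and ordered by difference (y axis). The filled points, *Cdh5*, *Pltp* and *Aplnr*, had an adjusted p under 0.05, and 28 of the 37 points lie left of 0.

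Among the pan-endothelial genes, 1 of 16 fell in *G-Smo* tumors and 4 were lower at an unadjusted p under 0.05. None rose, with none higher at an unadjusted p under 0.05 either, and 11 of 16 had a log2 difference below 0, with a median of -0.10. *Cdh5*, which encodes VE-cadherin, ran from 9.31 through a median of 9.51 to 9.58 in *G-Smo* tumors and from 9.74 through 9.80 to 9.91 in *M-Smo* tumors. The lowest *M-Smo* tumor thus lay above the highest *G-Smo* tumor. The means were 9.48 ± 0.10 in *G-Smo* and 9.81 ± 0.06 in *M-Smo* tumors (SD, n = 6 each), and the log2 difference was -0.33 (95% interval -0.45 to -0.21) or 1.26-fold lower, with an adjusted p of 0.0137 by limma. A two-sided exact permutation test, which has 924 ways to split 6 tumors from 6, gave p = 0.00216, the smallest it can give. *Cdh5* passed in each of the 12 fits that left out 1 tumor.

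The other pan-endothelial genes with large differences did not pass. *Erg*, an ETS transcription factor that maintains endothelial identity, had levels of 6.85 to 7.32 with a median of 7.13 in *G-Smo* tumors and of 7.15 to 7.49 with a median of 7.42 in *M-Smo* tumors. The ranges of *Erg* overlapped, and its log2 difference of -0.27 had an adjusted p of 0.164 by limma. *Clec14a*, a C-type lectin of the endothelial surface, had levels of 5.99 to 6.28 with a median of 6.21 in *G-Smo* tumors and of 6.19 to 6.81 with a median of 6.31 in *M-Smo* tumors. *M-Smo* replicate 4 held the highest value of *Clec14a*, 6.81, and the log2 difference of -0.21 did not pass at an adjusted p of 0.275 by limma. *Esam*, an adhesion molecule of tight junctions, differed by -0.20 and *Eng*, a coreceptor for TGF-beta ligands, by -0.14, with adjusted p of 0.122 and 0.228 by limma. *Pecam1*, the junctional marker CD31, had a log2 difference of -0.07 (95% interval -0.21 to 0.07).

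Several markers with the same use in histology had differences near 0. *Vwf*, the clotting factor stored by endothelium, differed by -0.05, *Nos3*, the endothelial nitric oxide synthase, by 0.01, and *Ramp2*, the partner of the adrenomedullin receptor, by 0.04 on the log2 scale. The signs of *Nos3* and *Ramp2* depend on the scaling: both turn below 0 after quantile normalization, and *Nos3* also after each array's median is subtracted. *Adgrl4*, an adhesion GPCR of vessels, had the highest difference of the group at 0.11 (95% interval -0.04 to 0.26). The SOX factors of endothelium did not pass either, with log2 differences of -0.11 for *Sox17* and 0.03 for *Sox18*. *Emcn*, a sialomucin of veins and capillaries, *Egfl7*, a matrix protein secreted by endothelium, *Mmrn2*, another protein of the endothelial matrix, and *Icam2*, a leukocyte adhesion molecule, had differences between -0.19 and 0.05, and none passed in limma. The mean over the 16 pan-endothelial genes was 7.79 to 7.93 in *G-Smo* and 7.91 to 8.07 in *M-Smo* tumors, so that the ranges met only at the edge.

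**Figure D2:**
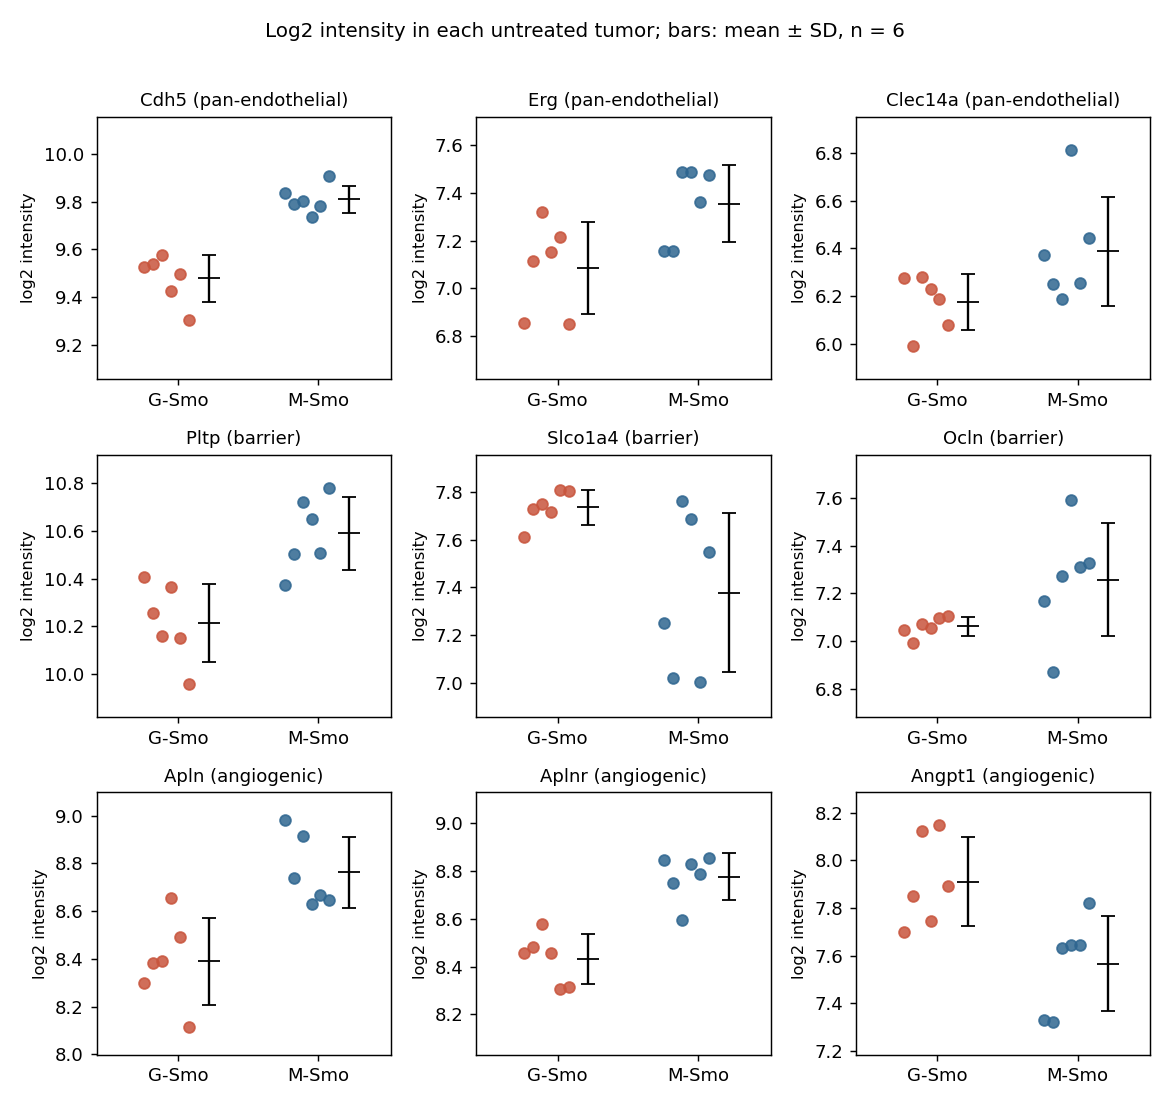
Log2 intensity (y axis) of 9 genes in each untreated tumor, *G-Smo* at left and *M-Smo* at right in each panel, with bars for the mean ± SD (n = 6). *Cdh5* and *Aplnr* separate the genotypes, *Pltp* does so but for 1 *M-Smo* tumor at 10.37, and *Slco1a4* and *Ocln* spread more widely among *M-Smo* than among *G-Smo* tumors.

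The barrier genes had the smallest median difference of the 3 role groups. Of 9 genes, 1 fell in *G-Smo* tumors and none rose in limma, with 1 higher at an unadjusted p under 0.05, 7 of 9 had a log2 difference below 0, and the median was -0.05. *Pltp*, which brain endothelium expresses but other cells do too, had levels of 9.96 to 10.41 with a median of 10.21 in *G-Smo* tumors and of 10.37 to 10.78 with a median of 10.58 in *M-Smo* tumors. Only *M-Smo* replicate 1 lay within the *G-Smo* range. The means were 10.22 ± 0.16 in *G-Smo* and 10.59 ± 0.15 in *M-Smo* tumors (SD, n = 6 each), and the log2 difference was -0.37 (95% interval -0.57 to -0.18), with an adjusted p of 0.0497 by limma and p = 0.0043 by the exact permutation test. The call lies at the threshold: it was kept without *G-Smo* replicate 1 or *M-Smo* replicate 1 and lost in the other 10 fits that left out 1 tumor, with an adjusted p of up to 0.106. When sex, scored from *Xist* and Y-linked genes, was added to the model, the log2 difference of *Pltp* was -0.43, farther from 0 than without it, while its adjusted p was 0.0797 and 0.602% of all probe sets were called lower.

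Markers of fibroblasts and meninges, which surround the larger vessels, were lower too. Of 12 such markers, 7 fell in *G-Smo* tumors, and the list's mean was 7.39 to 7.79 in *G-Smo* and 7.93 to 8.34 in *M-Smo* tumors, with no overlap. Of 10 astrocyte markers, 4 fell, with list means of 9.31 to 9.55 in *G-Smo* and 9.48 to 9.84 in *M-Smo* tumors. Their part in the differences of *Pltp*, *Cdh5* and *Aplnr* was not tested.

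The organic anion transporters of the barrier had differences of opposite sign, and neither passed. *Slco1a4*, which encodes OATP1A4, had levels of 7.61 to 7.81 with a median of 7.74 in *G-Smo* tumors and of 7.00 to 7.76 with a median of 7.40 in *M-Smo* tumors. The *G-Smo* tumors were alike, while *M-Smo* replicates 1, 2 and 5 were low at 7.25, 7.02 and 7.00 and the other *M-Smo* tumors reached the *G-Smo* range or came close to it. The log2 difference of 0.36 (95% interval 0.08 to 0.64) did not pass, with an adjusted p of 0.16 by limma. *Slco1c1*, the thyroxine carrier OATP1C1, had a log2 difference of -0.05 and a narrow spread, with an SD of 0.04 in *G-Smo* and 0.07 in *M-Smo* tumors.

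The tight junction genes did not pass. *Ocln*, which encodes occludin, had levels of 6.99 to 7.10 with a median of 7.06 in *G-Smo* tumors and of 6.87 to 7.59 with a median of 7.29 in *M-Smo* tumors. Both the lowest and the highest value of *Ocln* came from *M-Smo* tumors, replicates 2 and 4, and the log2 difference of -0.20 had an adjusted p of 0.289 by limma. *Cldn5*, the main claudin of brain endothelium, had a log2 difference of -0.04 (95% interval -0.21 to 0.13). Choroid plexus epithelium also makes tight junctions, and its markers were lower in most *G-Smo* tumors. Of 7 such markers none passed in limma, 5 were lower and none higher at an unadjusted p under 0.05, and the median log2 difference was -0.72, with -3.89 for *Ttr* (adjusted p = 0.11). Their mean was 6.90 to 7.05 in 5 *G-Smo* tumors and 8.14 in *G-Smo* replicate 5, against 6.99 in *M-Smo* replicate 5, 7.42 in *M-Smo* replicate 2 and 8.27 to 9.02 in the remaining 4 tumors of that genotype. The part of these cells in the values of *Ocln*, *Pltp* or any other of the 37 genes was not tested.

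The remaining barrier genes had intervals that cross 0. *Mfsd2a*, the lipid carrier that restrains transcytosis, differed by -0.13 (95% interval -0.30 to 0.04), and *Slc7a5*, the large neutral amino acid transporter LAT1, by -0.08 (-0.19 to 0.03). *Tfrc*, the transferrin receptor, differed by -0.01 (-0.18 to 0.17). *Slc7a5* and *Tfrc* serve proliferating tumor cells as well as endothelium. *Ly6c1*, a surface antigen of brain vessels, was dim and the most variable of the 37 genes, with an SD of 0.58 in *G-Smo* and 0.53 in *M-Smo* tumors and a difference of 0.08 (-0.55 to 0.70).

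The angiogenic genes had the median difference farthest from 0 of the 3 role groups, and 1 of 12 passed. The median log2 difference was -0.22, 10 of 12 were below 0, and at an unadjusted p under 0.05, 6 were lower in *G-Smo* and 1 was higher. *Aplnr* had levels of 8.31 to 8.58 with a median of 8.46 in *G-Smo* tumors and of 8.59 to 8.86 with a median of 8.81 in *M-Smo* tumors, which did not overlap. The means were 8.43 ± 0.10 in *G-Smo* and 8.78 ± 0.10 in *M-Smo* tumors (SD, n = 6 each), and the log2 difference was -0.34 (95% interval -0.48 to -0.20) or 1.27-fold lower, with an adjusted p of 0.0199 by limma and p = 0.00216 by the exact permutation test. Without *G-Smo* replicate 5 the adjusted p of *Aplnr* was 0.0512, and it passed in the other 11 such fits.

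Its ligand *Apln*, apelin, had levels of 8.12 to 8.66 with a median of 8.39 in *G-Smo* tumors and of 8.63 to 8.98 with a median of 8.70 in *M-Smo* tumors. *G-Smo* replicate 4 alone reached the *M-Smo* range. The log2 difference of -0.37 (95% interval -0.58 to -0.17) was close to that of *Aplnr*, and the adjusted p of 0.0561 by limma missed the threshold. Without *G-Smo* replicate 4 *Apln* passed, at an adjusted p of 0.0346. Across tumors within genotypes, ligand and receptor did not vary together, with a Pearson r of -0.03 (exact permutation p = 0.932) and a Spearman rho of -0.09.

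The angiopoietin system and the VEGF receptors were measured next to each other. *Angpt1*, the ligand that stabilizes vessels, had levels of 7.70 to 8.15 with a median of 7.87 in *G-Smo* tumors and of 7.32 to 7.82 with a median of 7.64 in *M-Smo* tumors. *M-Smo* replicates 1 and 2 were lowest, and the log2 difference of 0.34 (95% interval 0.11 to 0.57) did not pass at an adjusted p of 0.108 by limma. A second probe set of *Angpt1*, dimmer at a mean of 5.08, had a difference of 0.03 with an adjusted p of 0.945. *Tek*, the receptor TIE2 to which both angiopoietins bind, had a log2 difference of -0.29 (-0.46 to -0.13) with an adjusted p of 0.0639 by limma, and of 0.034 without *M-Smo* replicate 2, its lowest *M-Smo* tumor. *Tie1*, the orphan partner of TIE2, differed by -0.23 (adjusted p = 0.131 by limma), and *Angpt2*, released by activated endothelium, by 0.11 (-0.08 to 0.31).

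*Vegfa* had a log2 difference of -0.25 with an adjusted p of 0.16 by limma, and its main receptor *Kdr*, VEGFR2, one of -0.20 with an adjusted p of 0.218. *Flt1*, the decoy receptor VEGFR1, and *Flt4*, the VEGF-C receptor of lymphatic and sprouting endothelium, differed by -0.08 and -0.07. *Esm1*, a tip cell proteoglycan, and *Plvap*, the protein of fenestral diaphragms, were dim and did not pass, with differences of -0.07 (95% interval -0.26 to 0.13) and -0.26 (-0.56 to 0.05). *Plvap* overlapped widely, at 5.39 to 6.01 in *G-Smo* and 5.63 to 6.24 in *M-Smo* tumors. The mean over the 12 angiogenic genes was 7.33 to 7.52 in *G-Smo* and 7.47 to 7.67 in *M-Smo* tumors.

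Barrier and angiogenic genes were also read relative to the pan-endothelial mean of the same tumor, an alternative added after the values were seen. This scale does not give a level per endothelial cell, since other cells express some of these genes too. On that scale *Slco1a4* was higher in *G-Smo* tumors by 0.46 (adjusted p = 0.0463 by limma) and *Angpt1* by 0.44 (0.025), and *Aplnr* was lower by a log2 difference of -0.24 (0.025). *Pltp* did not pass, at -0.27 (0.0638). The scale itself moves all genes up in *G-Smo* tumors, since the pan-endothelial mean was lower there: 7.5% of all probe sets were called higher and 0.735% lower. With the pan-endothelial mean as a covariate instead, none of these 21 genes passed in limma. At an unadjusted p under 0.05, 3 of the 21 were lower (*Tek*, *Apln* and *Aplnr*) and 2 higher (*Slco1a4* and *Angpt1*), where the shares over all probe sets were 7.11% and 7.99%. After adjustment 0.0508% of all probe sets were called lower and 0.075% higher.

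Covariation between tumors was examined with the genotype means removed, so that the genotype difference did not enter. Sex was not removed, and its part in the values of r was not tested. Each of the 36 other genes was set against *Cdh5*, which only endothelium expresses, with an exact test over the 720 × 720 permutations of tumors within genotypes. None passed after Benjamini-Hochberg adjustment over the 36 relations, by r or by Spearman rho, where the smallest adjusted p were 0.523 and 0.251. By r 3 genes had an unadjusted p under 0.05, and by rho 5 did, the same 3 with *Eng* and *Vwf*. The 3 were *Egfl7* with a Pearson r of 0.64 (exact p = 0.0195, adjusted 0.523) and a Spearman rho of 0.69 (exact p = 0.0279), *Slc7a5* with 0.60 (0.0478, adjusted 0.523) and 0.74 (0.0143), and *Flt1* with 0.59 (0.0451, adjusted 0.523) and 0.63 (0.0482). Without *G-Smo* replicate 6 and *M-Smo* replicate 6, the tumors farthest from the median of *Cdh5*, r was 0.48 for *Egfl7*, 0.57 for *Slc7a5* and 0.29 for *Flt1*. *Eng* had an r of 0.61 (exact p = 0.0654) and a rho of 0.74 (exact p = 0.0143), with an r of 0.83 without those tumors, and *Vwf* an r of 0.42 (exact p = 0.147) and a rho of 0.69 (exact p = 0.0279), with an r of 0.43 without them.

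Over the 36 genes the median r with *Cdh5* was 0.26 and 26 were positive. Over all probe sets with 1 gene symbol the median was 0.02, with 95% of values between -0.55 and 0.59 and 52.2% positive. Without *G-Smo* replicate 6 and *M-Smo* replicate 6 the median r over the 36 genes was -0.03, and the genes differed in this: *Kdr*, at 0.60 over all tumors, had an r of 0.01 without them, while *Flt4*, at 0.58, had 0.59. By *Xist* and Y-linked genes, both tumors left out were of the sex less frequent in their genotype. The barrier genes *Cldn5* (r = 0.21), *Slco1a4* (-0.05) and *Ocln* (-0.18) and the pan-endothelial genes *Emcn* (-0.09) and *Clec14a* (-0.01) had an r below that median of 0.26. Since no r with *Cdh5* passed, these values do not sort genes into those that follow *Cdh5* and those that do not.

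**Figure D3:**
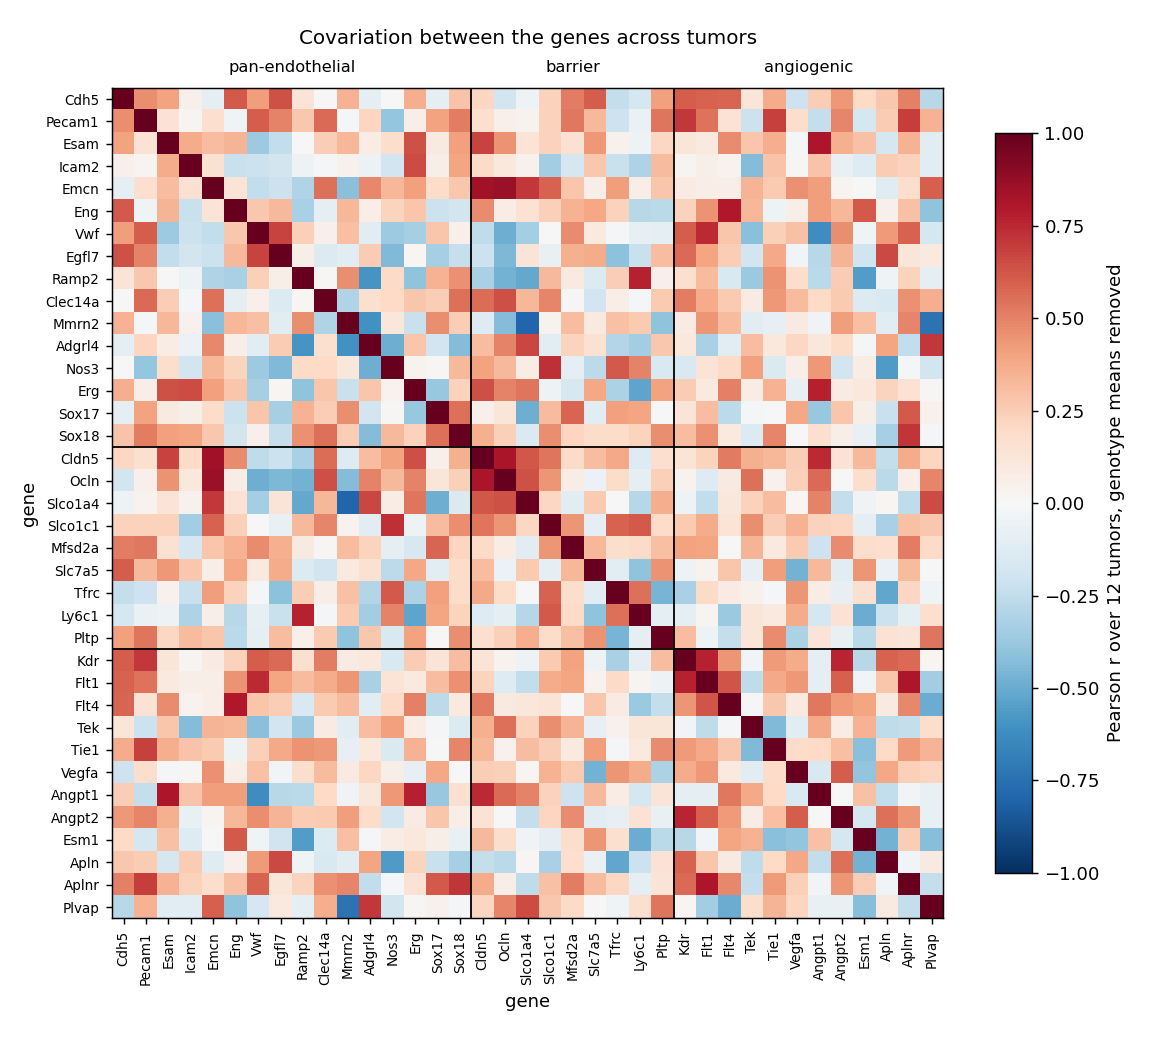
Pearson r between each pair of the 37 measured genes over 12 tumors with genotype means removed (color, from -1 to 1), with genes on both axes ordered by role. Red squares mark *Emcn*, *Cldn5* and *Ocln* and the *Kdr*, *Flt1* and *Aplnr* corner, while most other squares are pale in every role group.

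Over all 666 pairs of genes, 452 were positive, 41 (6.16%) had an unadjusted exact p under 0.05 and none passed adjustment over the pairs, where the smallest adjusted p was 0.447. Genes of one role did not stand out from genes of different roles: the median r was 0.13 among pan-endothelial, 0.20 among barrier and 0.19 among angiogenic genes, and 0.16 between pan-endothelial and barrier, 0.17 between pan-endothelial and angiogenic and 0.14 between barrier and angiogenic genes. Pairs of all probe sets with 1 gene symbol had a median r of 0.003, and 50.3% were positive. These medians are descriptions of gene pairs read from the same tumors and arrays, and they carry no test.

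The highest values of r joined *Emcn* with the junction genes *Ocln* (0.86) and *Cldn5* (0.84), and *Cldn5* with *Ocln* (0.82). In these 3 pairs r lay between -0.19 and 0.19 within *G-Smo* tumors and between 0.90 and 0.98 within *M-Smo* tumors, a difference that was not tested. For *Emcn* and *Ocln* r was -0.19 within *G-Smo* and 0.92 within *M-Smo* tumors, and without *M-Smo* replicates 2 and 4, tumors left out after the values were seen, it was 0.08. Without the same tumors r was 0.47 for *Emcn* and *Cldn5* and 0.38 for *Cldn5* and *Ocln*. *Flt1* and *Aplnr*, in contrast, varied together in both genotypes, with an r of 0.81 over all tumors (exact permutation p = 0.00285, adjusted 0.447; rho = 0.77), 0.76 within *G-Smo* and 0.87 within *M-Smo* tumors, and 0.80 without *G-Smo* replicate 6 and *M-Smo* replicate 1. *Kdr* and *Flt1* had an r of 0.77, and of 0.42 without the same tumors. These tumors, too, were of the sex less frequent in their genotype. *Angpt1* had an r of 0.81 with *Esam*, 0.78 with *Erg* and 0.75 with *Cldn5*, and *Mmrn2* one of -0.79 with *Slco1a4*. As with all 666 pairs, none of these passed adjustment.

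**Figure D4:**
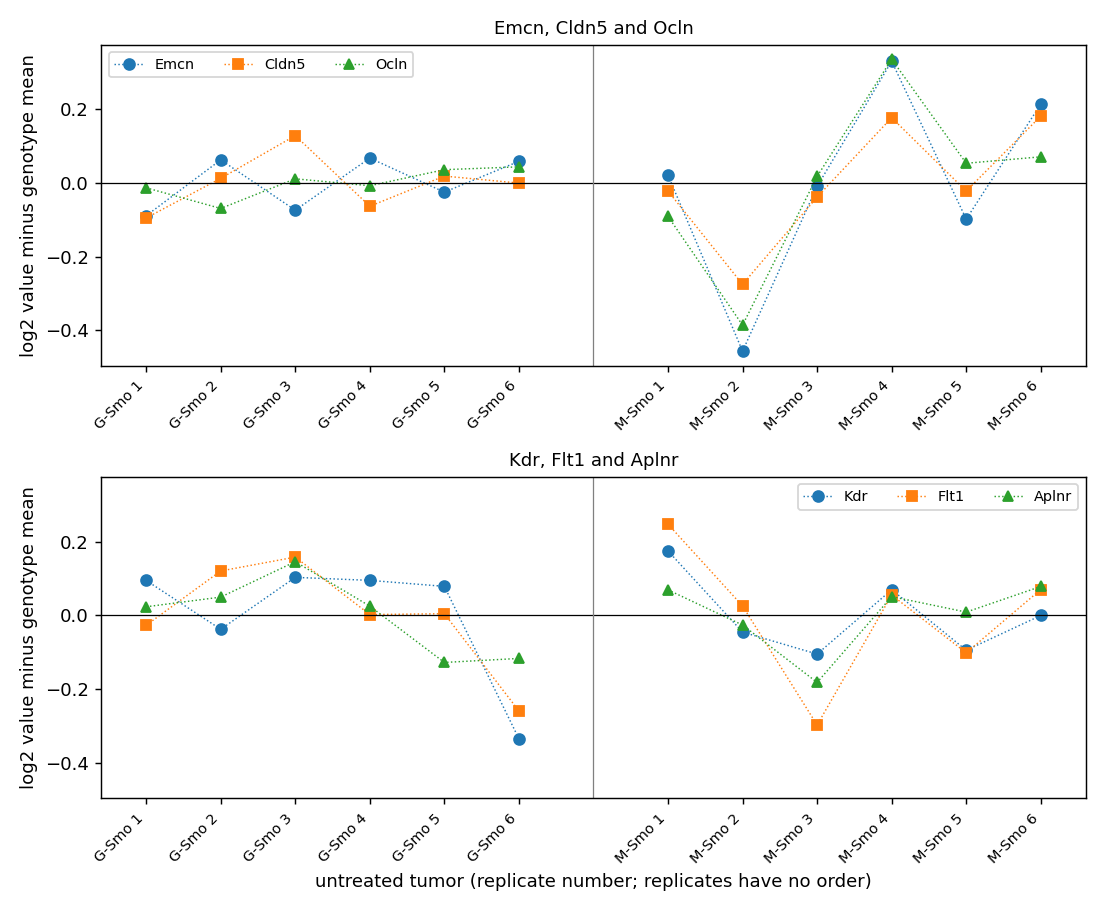
Log2 value minus the genotype mean (y axis) of 2 sets of genes in each untreated tumor (x axis, *G-Smo* at left; replicate numbers carry no order and the dotted lines only join points of a gene). *Emcn*, *Cldn5* and *Ocln* are low together in *M-Smo* replicate 2, high in *M-Smo* replicate 4 and closer to 0 in *G-Smo* tumors, while *Kdr*, *Flt1* and *Aplnr* vary in both genotypes and are low in *G-Smo* replicate 6.

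Further genes of the vascular pathways were read from lists, which were also chosen with earlier results of these data known. Of 20 further endothelial genes, 2 fell in *G-Smo* tumors and none rose in limma, with 1 higher at an unadjusted p under 0.05, and 18 of 20 had a log2 difference below 0, with a median of -0.12. *Calcrl*, the receptor that RAMP2 turns into an adrenomedullin receptor, had levels of 8.97 to 9.29 in *G-Smo* and 9.47 to 9.68 in *M-Smo* tumors and a log2 difference of -0.41 (95% interval -0.55 to -0.26, adjusted p = 0.0113 by limma). *Tm4sf1*, a tetraspanin-like protein of endothelium, fell by 0.41 (adjusted p = 0.0476). Of 16 further barrier genes none passed in limma and 4 were lower at an unadjusted p under 0.05, led by *Lsr*, a protein of tricellular junctions, at -0.29 (adjusted p = 0.0523).

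Of 15 genes of Wnt barrier signaling, 1 fell, with a list median of 0.03. It was *Lef1*, a transcription factor at the end of the Wnt pathway, at 7.11 to 7.34 in *G-Smo* and 7.39 to 7.87 in *M-Smo* tumors, with a difference of -0.39 on the log2 scale (adjusted p = 0.0308 by limma). The ligands *Wnt7a* and *Wnt7b* had differences of -0.09 and 0.03. Of 21 further genes of VEGF, angiopoietin, Notch and ephrin signaling, *Cxcl12*, a chemokine of endothelium and stroma, fell by 0.42 (adjusted p = 0.0116 by limma) and *Ephb4*, the ephrin receptor of veins, rose by 0.40 (0.0226). *Ephb4* had levels of 8.44 to 8.84 in *G-Smo* and 8.01 to 8.40 in *M-Smo* tumors, with no overlap, as in 1.89% of all probe sets, and 1.27% of all probe sets rose. Its ligand *Efnb2*, the arterial ephrin, also had no overlap and a difference of 0.22, with an adjusted p of 0.0559.

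Other cell types of the vessel wall and blood moved less than the fibroblast markers. Of 14 markers of pericytes and smooth muscle, 1 fell, *Anpep* (log2 difference -0.47, adjusted p = 0.0137 by limma), and *Rgs5* and *Pdgfrb*, the defining pericyte markers, had -0.13 and -0.21 with adjusted p of 0.161 and 0.152. Of 11 measured markers of microglia and macrophages 1 fell, *Mrc1*, the mannose receptor of border macrophages, by 0.71 (adjusted p = 0.0087 by limma). Of these 11, 6 had a log2 difference below 0 and 5 above, with a median of -0.02. At an unadjusted p under 0.05, 1 was lower and 1 higher. Of 6 markers on the platelet list *Pf4* alone fell, by 0.53 (adjusted p = 0.0101 by limma), with a list median of -0.09. Which cells gave the *Pf4* RNA was not tested. *G-Smo* replicate 6, the only *G-Smo* tumor with low *Xist*, had the lowest mean of the pan-endothelial, angiogenic, mural, fibroblast and astrocyte lists. Without it, *Cdh5* and *Aplnr* still passed and *Pltp* did not.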

How the data were processed

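RNA of each tumor was measured on 1 Affymetrix array, and the authors deposited 1 log2 intensity for every probe set, computed with RMA (background correction, quantile normalization and summary of probes). Per the labels Partek was used, with no version given. Probe sets were named from the platform annotation, and only those with 1 gene symbol stood for a gene. Untreated *G-Smo* and *M-Smo* tumors were compared with limma 3.58.1 in R 4.3.3 (lmFit and eBayes, two-sided) over 41345 probe sets, with Benjamini-Hochberg adjustment and a threshold of 0.05. The unmoderated 1-way test of the methods was run as an alternative. Single values were tested by exact permutation, and correlations in Python 3.11.15 with numpy 2.4.6. Arrays hold no read depth, so the number of tumors sets the precision.

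Values per tumor are given for genes at an adjusted p under 0.05 and for the 3 members of each role group with the largest absolute difference, and up to 4 genes of each other list are named by adjusted p, with *Wnt7a* and *Wnt7b* added after their values were seen. The genes and lists were chosen with earlier results of these data known. On simulated data with known changes, 44.8% of changes of 0.5, 86.6% of 1 and 98.5% of 2 on the log2 scale were recovered in this comparison over 41345 probe sets. Alternatives covered scaling, low-intensity and annotation filters, the variance model, array weights, replicate numbers, sex-linked genes, the pan-endothelial mean and each tumor left out.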

Additional observations from a re-analysis of the deposited data

Results flagged for a closer look

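In 3 of the 74 groups of 6 tumors examined, 1 group per gene and genotype, a single tumor lay farther from its nearest neighbor than Dixon's critical share of the range, where chance sets apart about 1 in 20 groups. *Egfl7* was 7.32 in *G-Smo* replicate 6, against 7.57 to 7.68 in the other *G-Smo* tumors. *Kdr* was 8.36 in the same tumor, against 8.66 to 8.80 in the others. *Tek* was 7.48 in *M-Smo* replicate 2, against 7.72 to 7.85 in the rest of that genotype.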

How the results depend on the processing

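*Cdh5*, *Aplnr* and *Pltp* kept their direction under every alternative that gave them a value, and the calls moved as follows. After array medians were subtracted 4 of the 37 genes passed, all lower in *G-Smo*, 2 of them angiogenic, with *Apln* added, and 5 passed after quantile normalization, 3 of them angiogenic, with *Tek* and *Apln* added. The same 5 passed without the dimmest 40% of probe sets, where 34 genes were tested and 1881 of 24807 probe sets passed in place of 1057, and over probe sets with 1 gene symbol. limma's trend and robust options and array weights each gave 2 angiogenic genes. The methods' test called 2 genes and no barrier gene (1 lower and 1 higher at an unadjusted p under 0.05), since *Pltp* had an adjusted p of 0.0629. With sex, scored from the sex-linked genes, as a covariate, 420 probe sets passed, *Cdh5* and *Aplnr* passed and no barrier gene did. With the pan-endothelial mean as a covariate 0 barrier and 0 angiogenic genes passed, and relative to that mean, an alternative chosen after seeing the data, 2 angiogenic genes passed, 1 higher and 1 lower.

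With the replicate number as a block, 113 of all probe sets (0.123% lower in *G-Smo*) and 0 of the 37 genes passed in limma, 0 in each role group, while 10 were lower and 2 higher at an unadjusted p under 0.05, as were 7.77% and 9.31% of all probe sets. With genotype means removed, same-numbered tumors correlated at -0.138 to 0.114 and differently numbered tumors of the 2 genotypes at -0.177 to 0.223. Whether the numbers stand for a shared litter or day is not given, and these values cannot decide it. When 1 tumor was left out, 367 to 942 probe sets, 1 to 3 of the 37 genes, 0 to 1 barrier and 0 to 2 angiogenic genes passed. The lowest counts came without *G-Smo* replicate 5, with 367 probe sets and 1 gene, *Cdh5*. Without *G-Smo* replicate 6, 3, 2 or *M-Smo* replicate 6 or 5, 452, 503, 609, 596 and 676 probe sets passed. Correlations with *Cdh5* passed adjustment for 11 of 36 genes when the genotype means were not removed, in place of 0, since the genotype difference then enters.

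An array gives no depth, and the 5 genes below the median probe set have weak signals. A gene that did not pass is not shown to be equal in the genotypes, and its interval gives the differences the 6 tumors allow. Genotype and the mix of sexes overlap in part, and whether tumors of a genotype share litters is not given.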
